A study of Mus musculus with 8 samples.

Results

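The serotonin receptor family was examined in the medial prefrontal cortex (mPFC) as 10 genes, Htr1a, Htr1b, Htr1d, Htr1f, Htr2a, Htr2c, Htr3a, Htr4, Htr5a and Htr7. They were picked by symbol, and every probe of the Agilent array whose gene name equals a symbol was taken. This gave 14 probes of 55681 that are not controls, for 10 of the 34797 gene names on the array. RNA came from 8 adult male mice of the inbred strain C3H/HeN, with 1 single-colour array per mouse and no pooling. Of these, 4 had undergone maternal separation (MS), in which pups were taken from the dam daily from postnatal day 2 to 14 while she was stressed in unpredictable ways, and 4 were controls that were not separated. All had been weaned on postnatal day 21, and according to the methods of the study they had been tested for food reward in operant cages and were food deprived before the brain was dissected. The comparison asks whether MS left a difference in receptor RNA in this tissue. Animals are called by their group and the number in their label, such as control 8.4.

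Serotonin reaches the prefrontal cortex in axons of raphe neurons of the brainstem, so the receptors measured in cortex belong mostly to local cells. The receptors of class 1 and 5 couple to inhibitory G proteins, those of class 2 to Gq and phospholipase C, and those of class 4 and 7 to Gs and adenylyl cyclase, while class 3 forms a cation channel. In cortex Htr2a is known from pyramidal neurons, Htr1a from pyramidal neurons and interneurons, and Htr3a from a class of interneurons, and Htr2c is also abundant in choroid plexus.

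The probes of Htr2c and Htr1b are shown because the result for each of these genes turned on which probe or which animal was read. They are given as printed in the scanner files, in the sense of the gene and 5′ to 3′, with positions on build mm9. The first 30 of the 60 bases of the brightest Htr2c probe are shown. The next Htr2c probe is called coding here, without a check against annotation. The last one closes the coding sequence, with 19 codons followed by the stop codon, which is in capitals. The brightest probe starts 2517 bases beyond the end of that stop codon, on the same strand. The Htr1b probe is also called coding without such a check, and has 1 open reading frame.
Htr2c, brightest probe, chrX:143631655-143631714, plus strand: cgtgcaacagactgccttatattatttcct
Htr2c, coding probe, chrX:143604149-143604208, plus strand: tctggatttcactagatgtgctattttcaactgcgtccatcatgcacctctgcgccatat
Htr2c, probe at the stop codon, chrX:143629079-143629138, plus strand: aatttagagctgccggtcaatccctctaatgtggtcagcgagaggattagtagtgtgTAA
Htr1b, chr9:81525015-81525074, minus strand: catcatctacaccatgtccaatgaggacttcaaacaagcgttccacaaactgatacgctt

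A level is the log2 signal minus the 75th percentile of its array, so that 0 is the signal of the probe at that percentile and 1 unit is a 2-fold change. Between 61.6% and 68.9% of probes per array stood well above background. The 75th percentile of signal was lowest in MS 7.1 (588.0) and highest in control 8.4 (892.4), and saturation was not seen. All arrays sat on 1 slide, with 2 MS and 2 control arrays in each of its 2 rows. Control 8.4 stood apart from the other arrays, with a median correlation of 0.987 to them. Its mean over 10 tested markers of striatal projection neurons lay 1.34 above the mean of the 8 arrays, whereas MS mice had -0.31 to -0.09 and the remaining controls -0.27 to -0.08. The projection neuron markers of cortex were present on every array, with Slc17a7, the vesicular glutamate transporter of cortical pyramidal neurons, from 2.92 to 3.09 in MS mice and from 2.59 to 2.99 in controls, with control 8.4 lowest. With 4 arrays a group, the precision of every difference below is limited.

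No receptor probe passed the test of MS against control mPFC. Of the 14 probes, 9 probes of 8 genes met the detection rule (every array of MS, of control or of both well above background) and were tested in limma together with all 34098 such probes. None of the 9 passed a Benjamini-Hochberg adjusted p of 0.05 (adjusted p = 0.9996 for each in limma), where 0% of all tested probes passed. None had an unadjusted p under 0.05, against 2.39% of all tested probes. None of the 9 had MS values that all lay above or all below the control values, against 1.43% of all tested probes. The fitted difference (MS minus control) was below 0 for 7 of the 9 and above 0 for 2, where 45.1% of all tested probes had one below 0. The median log2 difference of the 9 was -0.15, and that of all tested probes was 0.01 with a median standard error of 0.12. The median of the 9 was -0.01 with normexp background correction, -0.08 with array weights, -0.11 in slide row 1 and 0.00 in slide row 2, where 5 of 9 lay below 0. For 7 of the 9 probes the 95% confidence interval of the difference excluded a 2-fold change up or down. In tissue RNA, fewer cells of a type and less RNA per cell cannot be told apart.

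**Figure D1:**
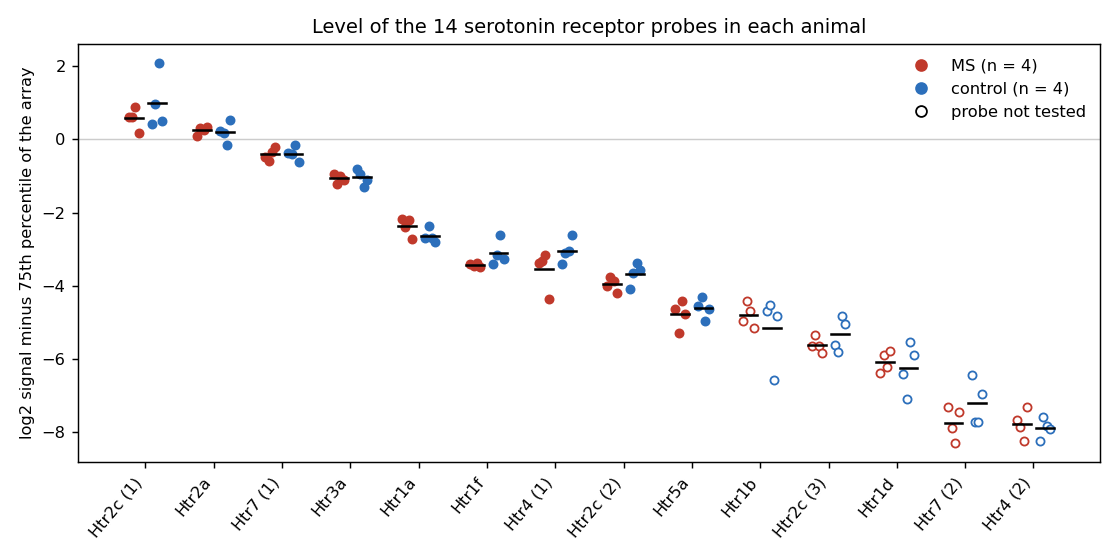
Level of each of the 14 receptor probes (log2 signal minus the 75th percentile of the array, y axis) in 4 MS and 4 control mice, with a black line at each group mean. Probes are ordered by mean level, a number in brackets marks probes of the same gene from brightest to dimmest, and open circles are the 5 probes that were not tested. The MS and control points of each probe share part of their range.

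Ranked by the brightest probe of each gene, the order of mean level over the 8 arrays was Htr2c (0.79 ± 0.58, SD, n = 8), Htr2a (0.22 ± 0.20), Htr7 (-0.40 ± 0.16), Htr3a (-1.05 ± 0.16), Htr1a (-2.51 ± 0.25), Htr1f (-3.27 ± 0.28), Htr4 (-3.30 ± 0.50), Htr5a (-4.70 ± 0.31), Htr1b (-4.98 ± 0.69) and Htr1d (-6.16 ± 0.49). A probe's signal depends on the probe as well as on the RNA, so this is an order of signals and not of transcript numbers. Htr3a held rank 4 on all 8 arrays. Htr2c and Htr2a did not differ beyond their spread, with Htr2c brighter on 6 of 8 arrays by 0.57 ± 0.75 (mean ± SD of the difference within an array), the exceptions being MS 7.6 and control 8.5. Htr1f and Htr4 did not either, with Htr1f brighter on 3 of 8 arrays and a mean difference of 0.02 ± 0.45. Htr5a was brighter than Htr1b on 7 of 8 arrays, by 0.28 ± 0.68, which is also within the spread. The other neighbours kept their order on 7 or 8 arrays with mean gaps above their SD. On control 8.4, Htr2a was just below Htr7, Htr1a below Htr1f and Htr1b below Htr1d, and these pairs kept their order on the other 7 arrays. Among MS mice alone the order was the same, and among controls Htr4 (-3.04 ± 0.34) stood above Htr1f (-3.11 ± 0.34, SD, n = 4 each).

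Htr1a, the inhibitory receptor that hyperpolarises cortical neurons through potassium channels, had levels of -2.16, -2.41, -2.19 and -2.72 in MS mice 5.3, 7.1, 7.2 and 7.6, against -2.70, -2.38, -2.70 and -2.80 in controls 6.2, 8.2, 8.4 and 8.5. Animals are listed in this order throughout. In MS the animals 5.3 and 7.2 were above every control, whereas MS 7.6 lay among the controls. The log2 difference was 0.27 (95% confidence interval -0.06 to 0.60, a ratio of 1.21, exact permutation p = 0.2, two-sided). The smallest p that the 70 labellings of 4 against 4 allow is 0.0286. The difference was 0.47 in slide row 1 and 0.08 in slide row 2, and without MS 7.6 it was 0.39 (0.10 to 0.68, adjusted p = 0.9828 in limma). The Htr1a probe lies at chr13:106237236-106237295 on the plus strand.

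Htr1f, a receptor of the same class that inhibits adenylyl cyclase, was at -3.40, -3.47, -3.39 and -3.49 in MS mice and at -3.39, -3.17, -2.62 and -3.26 in controls. The MS mice were close together (SD 0.05, against 0.34 in controls), and their range touched that of the controls only through control 6.2. Htr1f had the smallest p of the family, with a log2 difference of -0.33 (-0.68 to 0.03, a ratio of 0.798, exact permutation p = 0.0571, unadjusted limma p = 0.0671). Control 8.4 had the highest level, and without it the difference was -0.16 (-0.35 to 0.03), while with normexp background correction it was -0.15. The part of the striatal markers of control 8.4 in this difference was not tested. The difference was -0.11 in slide row 1 and -0.55 in slide row 2, and the probe lies at chr16:64924583-64924642 on the minus strand.

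Htr1b, the autoreceptor and heteroreceptor of axon terminals, was well above background on 3 of 4 arrays in MS and 3 of 4 in controls and was not tested. Its levels were -4.96, -4.41, -4.70 and -5.16 in MS mice and -4.68, -4.51, -6.58 and -4.83 in controls. Without control 8.4, whose value lay 1.75 below the next control, all animals lay between -5.16 and -4.41. Htr1d, a related terminal receptor with a probe at chr4:135999620-135999679, ran from -6.38 to -5.80 in MS and from -7.11 to -5.54 in controls and was well above background on 0 of 4 MS arrays and 1 of 4 control arrays. Htr5a, an inhibitory receptor with its probe at chr5:28181550-28181609, was at -4.63, -5.29, -4.43 and -4.77 in MS mice, against -4.57, -4.32, -4.95 and -4.65 in controls. The groups overlapped in most of their range, and the log2 difference of Htr5a was -0.15 (-0.60 to 0.29, exact permutation p = 0.571). It was -0.35 in slide row 1 and 0.04 in slide row 2.

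Htr2a, the Gq-coupled receptor of pyramidal neurons at which hallucinogens act, was the second brightest gene, above 63.3% of tested probes. Its levels were 0.10, 0.32, 0.27 and 0.33 in MS mice and 0.24, 0.16, -0.17 and 0.54 in controls. The MS values lay wholly inside the range of the controls, whose extremes were control 8.4 at the bottom and control 8.5 at the top. The log2 difference was 0.06 (-0.26 to 0.38, exact permutation p = 0.714). Without control 8.4 it was -0.06 (-0.32 to 0.20), and it was -0.18 in slide row 1 and 0.30 in slide row 2. The Htr2a probe lies at chr14:75106454-75106513 on the plus strand.

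Htr2c, the other Gq-coupled receptor, whose transcript is edited by adenosine deaminases, was the brightest of the family and lay above 68.6% of tested probes. At the probe beyond the stop codon its levels were 0.63, 0.62, 0.90 and 0.19 in MS mice and 0.43, 0.98, 2.09 and 0.51 in controls. Control 8.4 was far above every other animal, and the remaining 3 controls lay within or next to the range of the MS mice. The log2 difference was -0.42 (-1.21 to 0.36, a ratio of 0.747, exact permutation p = 0.457). Without control 8.4 it was -0.06 (-0.51 to 0.39), and without control 8.4 and MS 7.6 it was 0.07 (-0.32 to 0.47). It was 0.15 in slide row 1 and -0.99 in slide row 2, the row that holds control 8.4 and MS 7.6.

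The other Htr2c probes gave a part of the same picture. The coding probe read -4.00, -3.76, -3.87 and -4.21 in MS mice, against -4.09, -3.64, -3.39 and -3.56 in controls. Here 3 of the 4 controls were above all MS mice and control 6.2 was below 3 of them, with a log2 difference of -0.29 (-0.65 to 0.07, exact permutation p = 0.171) that was -0.20 without control 8.4. In slide row 1 it was -0.05 and in slide row 2 -0.52. The probe at the stop codon, well above background on 3 arrays of each group and not tested, read -5.66, -5.34, -5.64 and -5.83 in MS mice and -5.61, -5.81, -4.84 and -5.05 in controls. All 3 probes had their highest value in control 8.4. Over the 8 arrays, which share these animals, the brightest probe correlated with the coding probe at r = 0.764 and with the stop codon probe at r = 0.604, and without control 8.4 at 0.611 and -0.09.

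**Figure D2:**
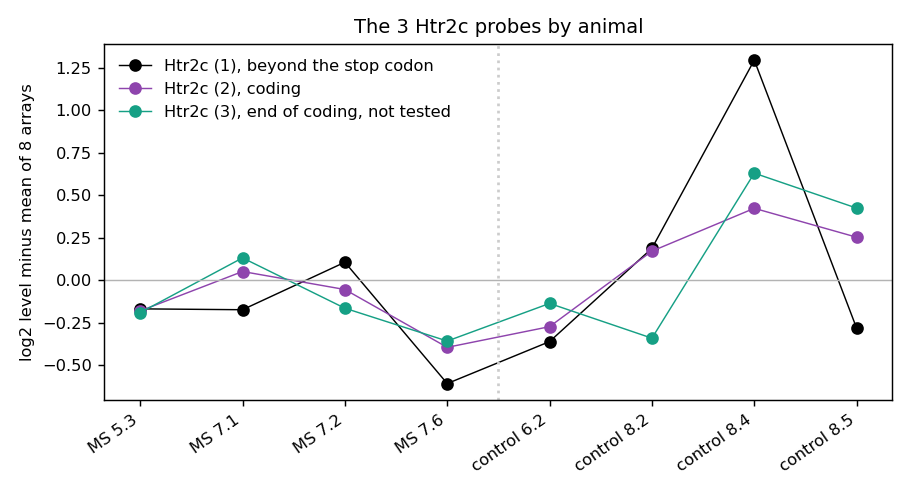
Level of the 3 Htr2c probes in each animal (y axis, log2 level minus the mean of the 8 arrays), with MS mice left of the dotted line and controls right of it. All 3 lines peak at control 8.4, by 1.30 for the brightest probe, and have their lowest value in MS 7.6.

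Markers of other tissue moved with Htr2c in control 8.4, and their part in its level was not tested. In the striatal list, Rgs9, a regulator of G protein signalling in medium spiny neurons, was at 0.75, 0.93, 0.59 and 0.55 in MS mice, against 0.57, 0.86, 3.38 and 1.08 in controls. Drd1, the D1 dopamine receptor, ran from -2.21 to -1.42 in MS mice, and the controls had -0.63 in animal 8.4 and -1.76 to -1.50 otherwise. The choroid plexus list (10 of 12 genes tested) ran from -0.07 to 0.02 in MS mice and was at 0.85 in control 8.4, with -0.37 to 0.00 in the remaining controls. Within it Clic6 read -1.0 in control 8.4, but the folate receptor Folr1 was lowest there at -5.45, and transthyretin (Ttr) read -1.96 there and -2.47 in MS 5.3. The olfactory bulb list (9 of 10 genes tested) stood high in 3 animals, with MS 7.6 at 1.25, control 8.4 at 2.28 and control 8.5 at 0.80. The other MS mice lay from -1.0 to -0.67 and the other controls from -0.90 to -0.89. Htr2c was lowest in MS 7.6, which shared the bulb markers, and highest in control 8.4.

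**Figure D3:**
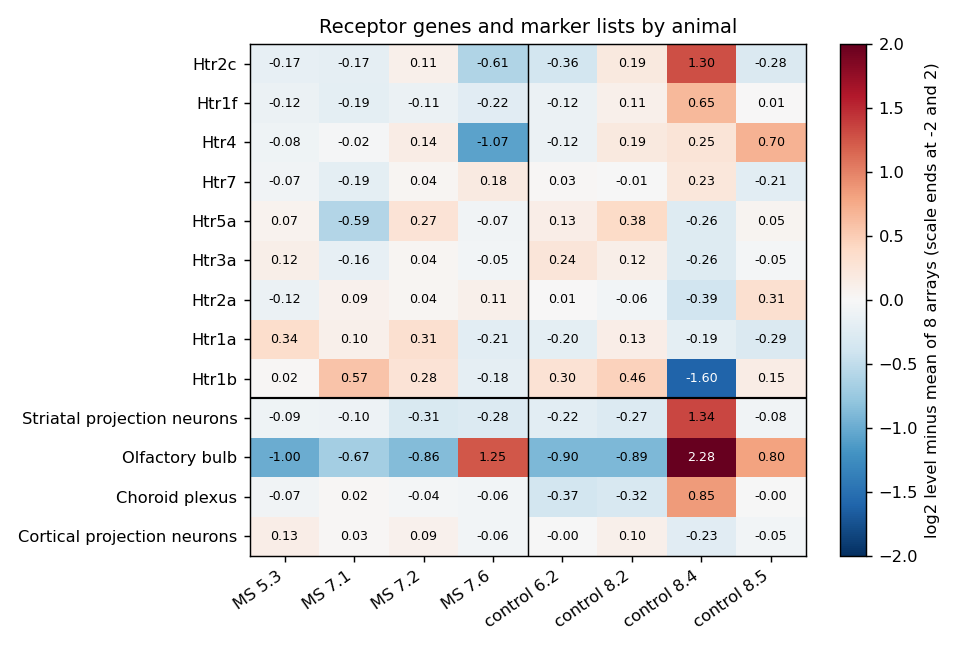
Receptor genes at their brightest probe (upper rows) and mean of marker lists (lower rows) in each animal, as log2 level minus the mean of the 8 arrays, with MS mice left of the vertical line and controls right of it. Control 8.4 has the highest Htr2c and Htr1f, the lowest Htr1b and the highest striatal, bulb and choroid plexus values, and MS 7.6 has the lowest Htr4. Colours end at -2 and 2, and the printed numbers give values beyond.

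Htr3a, the channel subunit of cortical interneurons, was at -0.93, -1.21, -1.01 and -1.11 in MS mice and at -0.82, -0.93, -1.31 and -1.10 in controls. The MS values lay inside the control range, with a log2 difference of -0.03 (-0.30 to 0.25, exact permutation p = 0.83). Vip, a peptide of some of the interneurons that carry Htr3a, ran from 1.42 to 1.64 in MS mice and from 1.12 to 1.69 in controls. Both Vip and Htr3a were lowest in control 8.4, as were the inhibitory neuron markers Cck and Pvalb. Gad1 (5.19), Gad2 (3.92), Slc32a1 (5.75) and Npy (3.40) of the same marker list were highest in control 8.4. The mean of that list was also highest there (0.12). The difference of Htr3a was -0.12 in slide row 1 and 0.06 in slide row 2, and its probe lies at chr9:48707773-48707832 on the minus strand.

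Htr7, a Gs-coupled receptor of pyramidal neurons, had levels of -0.47, -0.58, -0.35 and -0.22 in MS mice and -0.37, -0.41, -0.16 and -0.61 in controls. The groups had almost the same range, and its interval was the narrowest of the family, with a log2 difference of -0.02 (-0.29 to 0.25, exact permutation p = 0.83) that was -0.04 in slide row 1 and 0.00 in slide row 2. The probe lies at chr19:36033339-36033398 on the minus strand. The second Htr7 probe, at chr19:36038872-36038931, stayed below the detection rule on all arrays, with levels from -8.30 to -6.45.

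Htr4, the other Gs-coupled receptor, had the largest fitted difference of the family with all 8 animals and the processed signal. It was at -3.38, -3.32, -3.16 and -4.36 in MS mice, against -3.42, -3.11, -3.04 and -2.60 in controls. MS 7.6 was far below all other animals and control 8.5 was above them, while the other 6 animals lay between -3.42 and -3.04. The log2 difference of Htr4 was -0.51 (-1.13 to 0.11, a ratio of 0.701, exact permutation p = 0.143). Without MS 7.6 it was -0.24 (-0.66 to 0.18), smaller in size than that of Htr1a (0.39), Htr1f (-0.31) and Htr2c (-0.29). With all 8 animals it was -0.22 with normexp background correction and -0.28 in the table of the authors. Htr2c had -0.42 with normexp and -0.39 in that table. Both of these animals were among the 3 with high olfactory bulb markers, and the part of that tissue was not tested. The difference was -0.34 in slide row 1 and -0.68 in slide row 2. The probe lies at chr18:62627259-62627318, and the second Htr4 probe, which spans an intron between 62587815 and 62597080, stayed below the detection rule on all arrays.

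**Figure D4:**
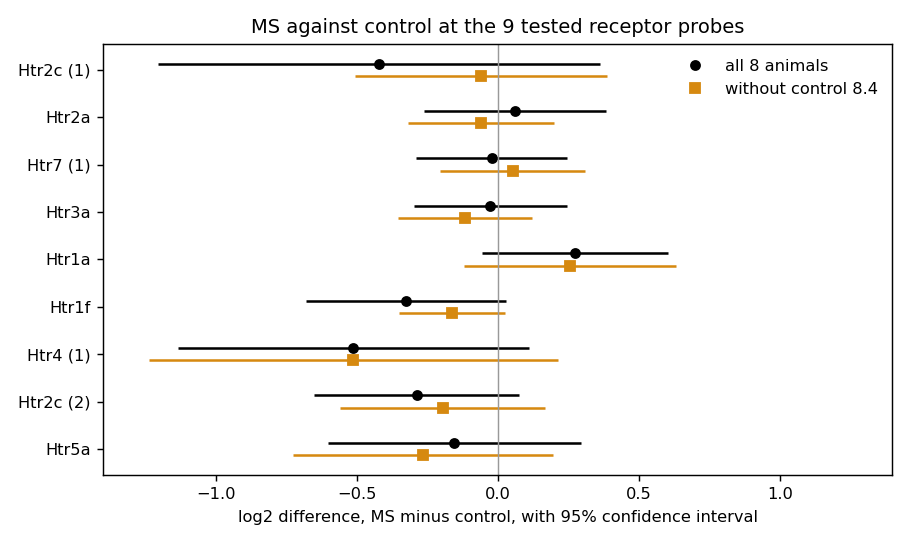
Log2 difference (MS minus control, x axis) of the 9 tested receptor probes with its 95% confidence interval from limma, for all 8 animals (4 MS, 4 control, black circles) and without control 8.4 (4 MS, 3 control, orange squares). Every interval includes 0, and the estimate of the brightest Htr2c probe is -0.42 with all animals and -0.06 without control 8.4.

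Without control 8.4, 7 of the 9 tested probes again had a difference below 0, with a median of -0.12, where 50.8% of all tested probes did. Without MS 7.1 the number was 4 of 9, with a median of 0.02, where 45.5% of all tested probes did, and without control 8.2 the median was -0.05. Without control 6.2, the MS values of Htr1f, Htr4 and the coding probe of Htr2c all lay below the remaining controls, which is 3 of 9 probes where 3.62% of all tested probes did not overlap (adjusted p = 0.9653 for each of the 3 in limma). Control 6.2 was the lowest control at each of these 3 probes.

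Of the 4 receptor genes on the array outside the 10, Htr5b and Htr6 were tested. Htr5b, an inhibitory receptor that is functional in rodents, was at -2.82, -3.20, -3.26 and -1.63 in MS mice and at -3.40, -2.76, -2.42 and -2.82 in controls, and its highest values were in MS 7.6 and control 8.4. Its log2 difference was 0.13 (-0.69 to 0.95), with -0.24 without MS 7.6 and -0.06 without control 6.2. Htr6, a Gs-coupled receptor, was at -3.27, -3.38, -3.41 and -3.32 in MS mice, against -3.43, -3.62, -4.30 and -3.20 in controls, with a log2 difference of 0.29 (-0.18 to 0.76) that was 0.07 without control 8.4. Htr2b was well above background on 1 array of each group and Htr3b on none.

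The genes that make, store, move and degrade serotonin were read beside 8 markers of raphe neurons. Of these markers, 4 (Fev, Gata2, Lmx1b and the vesicular transporter Slc18a2) were tested and 4 (Tph2, Slc6a4, Gata3 and En1) were not. Among the 4 tested, only Gata2 had all MS values below all control values, where 1.43% of all tested probes did not overlap. MS 7.1 (-1.996) and control 8.5 (-1.995) were next to each other. The log2 difference of Gata2 was -0.22 (-0.47 to 0.03, adjusted p = 0.9996 in limma). Tph2, the neuronal enzyme that starts serotonin synthesis, and Slc6a4, the serotonin transporter, were well above background on 0 of 8 arrays. Fev, a transcription factor of serotonin neurons, was so on 4 of 4 MS arrays and 3 of 4 control arrays, and Slc18a2, also used by other monoamine neurons, on all 8. Of 14 genes in the list 10 were tested, with 3 higher and 7 lower in MS, a median log2 difference of -0.05 and 0 past the adjusted threshold in limma (0 also at an unadjusted p under 0.05). Over all 23435 genes, 54.5% were higher in MS and the median was 0.01. Maoa, the monoamine oxidase that prefers serotonin, had -0.58, 0.05, -0.01 and -0.21 in MS mice and 0.06, -0.25, 0.21 and -0.17 in controls, a log2 difference of -0.15 (-0.51 to 0.22) that was -0.02 without MS 5.3 and -0.06 without control 8.4. Its relative Maob gave -0.05 (-0.30 to 0.19), and the pterin recycling enzyme Qdpr, the brightest of the list, gave -0.07 (-0.26 to 0.11). Slc29a4, the low-affinity monoamine transporter of the plasma membrane, gave -0.05 (-0.34 to 0.24), and Spr and Pts, which make the cofactor of the hydroxylases, gave 0.05 and 0.00. Without control 8.4, 5 genes were higher and 5 lower.

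All 25 G protein and effector genes were tested, with 19 higher and 6 lower in MS, a median log2 difference of 0.06 and 0 past the adjusted threshold in limma (0 also unadjusted). Itpr1, the calcium channel opened downstream of Gq, was at 5.84, 5.94, 5.79 and 5.78 in MS mice and at 5.76, 5.81, 5.27 and 5.64 in controls. It had a log2 difference of 0.22 (-0.06 to 0.49), with the lowest value in control 8.4, and of 0.10 without that animal. Gnas, the stimulatory G protein of Htr4 and Htr7, had 7.0 ± 0.09 in MS mice and 6.98 ± 0.06 in controls (SD, n = 4 each). Gnao1, an inhibitory type abundant in brain, had 5.14 ± 0.02 in MS mice and 5.09 ± 0.08 in controls, and Prkacb, a catalytic subunit of protein kinase A, gave a log2 difference of 0.09 (-0.18 to 0.36). Gnai2 gave -0.03 and the adenylyl cyclase Adcy1 gave -0.06. Without control 8.4, 17 genes of the 25 were higher in MS, where 49.3% of all genes were.

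Of 18 regulators and partners of the receptors, all were tested, with 11 higher and 7 lower in MS, a median of 0.03 and 0 past the adjusted threshold in limma (0 also unadjusted). Without control 8.4, 7 were higher and 11 lower. Rgs4, which shortens Gi and Gq signals, was at 4.28, 4.60, 4.62 and 4.34 in MS mice, against 4.15, 4.60, 3.64 and 4.16 in controls. Its log2 difference was 0.32 (-0.11 to 0.76), and without control 8.4, the lowest value, it was 0.16. Rgs2, a regulator that acts on Gq, gave -0.10 (-0.34 to 0.14). Adarb1, an adenosine deaminase that edits Htr2c RNA, had 4.32 ± 0.05 in MS mice and 4.25 ± 0.09 in controls (SD, n = 4 each). The arrestin Arrb1 gave 0.07, the receptor kinase Adrbk1 gave 0.13 and Hes5, a transcriptional repressor, gave -0.04.

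Among 23417 other genes, those whose level followed the 3 brightest receptors most closely over the 8 arrays were picked by Pearson correlation, as a description. Foxp2, a transcription factor of deep cortical layers and of striatum, followed Htr2c at r = 0.965 (Spearman 0.857), and at 0.832 without the animals farthest from the median, control 8.4 and MS 7.6. Zswim9 followed Htr2a at r = 0.985 and Bglap3 followed Htr7 at r = 0.958. The other 3 partners chosen by the same rule have no gene symbol in the files.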

How the data were processed

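RNA of the mPFC of 4 MS and 4 control mice was labelled with Cy3 and hybridised to Agilent mouse arrays, per the labels and methods of the study. The build mm9 and the array design 028005 were taken from the scanner headers. The methods give another design number. Spot intensity was deposited as scanner files, which the authors made with Agilent Feature Extraction (10.10.1.1). The processed intensity used here is background-subtracted and detrended, with no scaling across arrays. The authors also deposited a table of normalised log2 signal for 34137 probes, with 10 of the 14 receptor probes. Its columns had medians of 8.532 to 8.533 and matched the median spot signal of their own arrays (correlation 0.9999 or higher), so that values are not centred per gene. It served as an alternative. Detection flags in the deposited files (other) are calls of the same software.

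Of 62976 spots per array, 3671 control spots and outlier spots (0.255% to 0.304%) were left out. Log2 processed signals were averaged per probe and reduced by the 75th percentile of the array. Testing required detection well above background on 4 of 4 arrays in MS, in control or in both (34098 probes, 21583 left out). limma 3.58.1 (lmFit, eBayes, two-sided, no covariate) in R 4.3.3 gave differences, intervals and Benjamini-Hochberg p over all tested probes, with a threshold of 0.05. The fit was tested on simulated data. The brightest tested probe stood for a gene in the lists. Symbols were updated from RefSeq names of GRCm38.p6. Exon and UTR annotation of mm9 was not used here. The end of the Htr2c coding sequence was read from the probe whose open frame ends in a stop codon. The Htr2c probe and the Htr1b probe called coding were not checked against annotation. An open frame alone does not place a probe, since the brightest Htr2c probe and the coding one each had 2. Exact permutation used all 70 labellings. Figures used matplotlib 3.10.9 in Python 3.11.15.

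The members and lists were chosen with earlier results of these data known. Other serotonin genes were named by level (up to 6 per list), markers by their place in the list (up to 4), and similar genes by correlation (2 per receptor). The number before the point in a label (8 for 3 controls, 7 for 3 MS mice) has no stated meaning in the sources used here. Animals with the same number may share a litter. The p-values of the main fit and of the exact permutation ignore this. The alternatives were normexp background correction (offset 50), quantile and median scaling, the authors' table, no filter and a stricter one, slide row as a block and each row alone, the label number as a random block, array weights, the mean of a gene's probes, another detection call and each array left out. The fit without control 8.4 and MS 7.6 was added after seeing the data.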

Additional observations from a re-analysis of the deposited data

Results flagged for a closer look

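The Htr1b level of control 8.4, at -6.58, was separated from the other 3 controls (-4.83 to -4.51) by a gap of 0.847 of the range of the 4 controls and exceeded the 95% critical value of Dixon's test for 4 values. It was the only such value among 28 groups examined (14 probes in MS and in controls). Chance gives about 1 in 20 groups, so 1 value among 28 is no more than chance would give. The groups also share the same 8 animals. Htr1b was not well above background on that array, so the value is a dim one, and the same animal had the highest level of the striatal list (1.34).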

How the results depend on the processing

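No receptor probe and no other serotonin gene passed the adjusted threshold under any alternative with a test. Among the 8 receptor genes the lowest adjusted p in limma was 0.4207, for Htr4 and Htr1f with the label number as a random block. The values within a slide row and the mean of the Htr2c probes (-0.35) carry no test. Htr4, Htr1f and Htr1a kept the sign of their log2 difference in all 20 alternatives, from -0.68 to -0.22 for Htr4, -0.55 to -0.11 for Htr1f and 0.08 to 0.47 for Htr1a. Htr2c kept it in 18 of 21, Htr2a in 16, Htr3a in 16, Htr7 in 15 and Htr5a in 17 of 20. The sign turned with normexp for Htr5a (0.043), with median scaling for Htr7 (0.00052), with the authors' table for Htr7 (0.00875), and with array weights for Htr2c (0.000807), Htr2a (-0.023) and Htr7 (0.0349). It turned in slide row 1 for Htr2c (0.15) and Htr2a (-0.18), in slide row 2 for Htr3a (0.0647) and Htr5a (0.0411), and without control 8.4 and MS 7.6 for Htr2c (0.0731) and Htr2a (-0.0856). With 1 array left out at a time, the difference ran from -0.0593 to 0.175 for Htr2a, -0.117 to 0.0485 for Htr3a, -0.0954 to 0.0525 for Htr7 and -0.272 to 0.0157 for Htr5a, the count of probes lower in MS from 4 to 7, and the count without overlap from 0 to 3. Within slide rows of 2 against 2, 3 and 5 of the 9 probes did not overlap. Fewer animals make separation easier, and the share over all tested probes was not taken within a row. Neither count is therefore read as a result for the receptors. The rank correlation of the order with the main order was 0.9879 without MS 7.6 or without control 8.4 and 1 without any other array. A looser detection call gave 12 of 14 probes, against 9. Causes were not tested. No paired analysis was possible because MS and control mice share no number before the point of their labels and only the number 2 after it. Levels near -5 and below are close to background and limit Htr5a, Htr1b and Htr1d.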

Other observations

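The list of inhibitory neuron markers, all 12 tested, had 3 genes higher and 9 lower in MS, with a median log2 difference of -0.08 and 0 past the adjusted threshold in limma (2 at an unadjusted p under 0.05, Sncg and Adarb2, where 2.39% of all tested probes were). Both genes are named after their values were seen. The count was 1 without control 8.4 and 1 without MS 7.6. Gad1, an enzyme of GABA synthesis, was at 3.91, 3.65, 3.78 and 4.44 in MS mice and at 3.81, 3.94, 5.19 and 4.09 in controls, with control 8.4 highest and MS 7.6 next, and its log2 difference was -0.31 with all animals and 0.00 without control 8.4. Without control 8.4, 4 genes of the list were higher and 8 lower. The mean of 7 septal and hypothalamic markers stood above that of the 8 arrays in MS 7.1 (0.64), control 8.2 (0.73) and control 8.4 (0.97). It lay below in the other 5 animals. The members differed. In MS 7.6, Zic1 (1.99), Zic4 (-2.35) and Trpc4 (0.15) lay above their own means, and Oxt, Avp, Hcrt and Pmch below. In control 8.2, Zic1 (1.025) lay below its mean of 1.36 and the others above. All 7 genes were lower in MS with all animals and without control 8.4, where 54.5% and 49.3% of all genes were higher. Without control 8.4 and MS 7.6, 1 was higher and 6 lower, with a median of -0.21.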
